A study of Mus musculus with 6 samples.

Results

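The genes described are 46 genes of skeletal muscle that code for contractile proteins, calcium-handling proteins, muscle enzymes and myogenic regulators. They were chosen by name, from a list made with earlier results of these data known, and all 46 were measured among 19938 genes on whole-transcript arrays. The arrays held RNA of migrating keratinocytes taken by laser capture from the tip of the epithelial tongue in mouse skin wounds, 3 days after wounding. In the diabetic group (3 arrays), a diet high in fat and fructose was begun in mice aged 8 weeks and continued for 16 weeks, and in the normal group (3 arrays) mice received a control diet over the same time. No strain, sex or genetic change is given in the labels, the diet is the one inducer of diabetes they name, and captured cells from the sections of a sample were pooled into a tube. Replicates are titled biological, but whether each array had its own mouse is not stated, and p-values therefore cover the spread among the arrays at hand, part of which may be technical. Signals are given on the log2 scale, in the order of replicates 1 to 3, and every difference is diabetic minus normal with n = 3 arrays in each group.

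Skeletal muscle contracts when myosin heads of the thick filament pull on actin of the thin filament. Calcium released from the sarcoplasmic reticulum through the ryanodine receptor binds troponin C, which shifts tropomyosin off the myosin-binding sites, and the calcium pump returns it to the store. Mouse skin lies on a thin sheet of such muscle, the panniculus carnosus, which a full-thickness wound cuts through, whereas epidermal keratinocytes are not known to build sarcomeres. The study compares diabetic with normal keratinocytes during wound closure, and the muscle genes are described across it.

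The arrays were dim, and signals were therefore set against a background limit. On each array this limit was the 95th percentile of 1231 olfactory, vomeronasal and taste receptor genes, taken as a stand-in for genes without signal, and it lay between 1.98 and 2.12. A gene is called bright where its mean over all 6 arrays exceeded the highest limit, 2.12, and dim otherwise, so that the group played no part in the division. A dim gene has no more than an upper bound on its level, and 5336 of 19938 genes (26.8%) were bright. The capture was labelled as keratinocytes, and 7 of 20 keratinocyte markers (35%) were bright, beside the 26.8% of all genes. The cells were located by staining of E-cadherin protein. The RNA signal of its gene, Cdh1, was under the limit on all 6 arrays, at 1.88 ± 0.04 (SD) in diabetic and 2.04 ± 0.03 in normal samples, and does not measure the protein.

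Most skeletal muscle genes gave weak signals in both groups, and none of the 46 passed the adjusted threshold. In bulk samples like these, fewer cells of a type and less RNA per cell cannot be told apart. Of the 46, 23 (50%) were bright, 14 were above the limit on every array and 12 never reached it. Of all 19938 genes, 5336 (26.8%) were bright, 3511 were above the limit on every array and 10215 never reached it. The members thus exceeded the limit more often than genes in general. This did not hold for all skeletal muscle genes and was not particular to the members. Of lists of other skeletal muscle genes, 42.4% of sarcomere, 27.8% of calcium and excitation, 28.6% of energy and 28.6% of membrane and regulatory genes were bright. Among marker lists of other cell types the share ran from 8.33% (myeloid) to 53.3% (fibroblast). The values of all members on all arrays lay between 1.24 and 3.85. In limma with Benjamini-Hochberg adjustment over all 19938 genes, 0 members had an adjusted p under 0.05 (0 genes of all, a background of 0%), and the smallest adjusted p among them was 0.780. An unadjusted p under 0.05 was found for 4 members (8.70%), Mybpc1, Myh2, Myot and Sln, where 5.56% of all genes had one. Mybpc1 was the 1 bright member among them (4.35% of 23, all bright genes 5.6%) and was lower, and the 3 dim ones (13.0% of 23, all dim genes 5.55%) were higher. At that threshold 3.84% of all bright genes were higher and 1.76% lower, and 2.2% of all dim genes were higher and 3.35% lower. No member differed by 1.5-fold or more, as 0.316% of all genes did.

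The diabetic mean was the higher one for 30 of 46 members (65.2%), where it was for 48.7% of all genes. Among the 23 bright members 19 had the higher mean in diabetic samples and 4 in normal samples, and their median difference was 0.09. Of the 19, Atp2a1, Tnnt3 and Myoz1 were bright through their diabetic means of 2.30, 2.18 and 2.24. Their normal means, each 2.11, lay under the limit of 2.12. Among the 23 dim members the split was 11 to 12 and the median -0.03. Over all genes, 56.7% of bright and 45.8% of dim genes had the higher mean in diabetic samples, with medians of 0.03 and -0.01. No test of the list was made, and the direction of 11 bright members turned under at least 1 alternative. Of the dim members, only Myh2, Myh3, Myot and Sln were followed through the alternatives one by one. Without diabetic replicate 2 the bright members were 16 higher and 7 lower, and with brightness defined as exceeding the limit on all 6 arrays they were 10 higher and 4 lower. The members nearest the division were Tnnt3, Tnni1 and Myoz1 on the bright side, with means of 2.15, 2.15 and 2.17, and Eno3, Myh3 and Tpm2 on the dim side, with means of 2.11, 2.10 and 2.08.

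**Figure D1:**
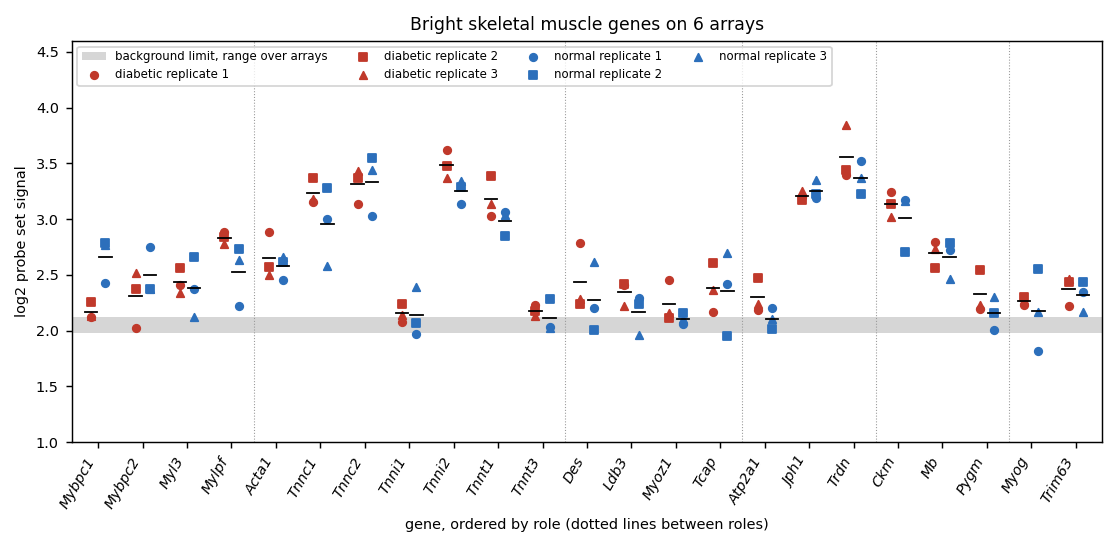
Log2 probe set signal of the 23 bright skeletal muscle genes on each of 6 arrays, with a marker for each array (diabetic in red, normal in blue), a black line at each group mean (n = 3) and a grey band for the range of the background limit over the arrays, 1.98 to 2.12. The groups overlap for all of these genes except Mybpc1, which is lower in diabetic samples, and Mylpf and Tnni2, which are higher.

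The thick filament, with 6 of 12 members higher and 6 lower, held the member with the smallest p. Mybpc1 (probe set 10371627) codes for slow skeletal myosin-binding protein C, which anchors to myosin and modulates its interaction with actin. It was at 2.12, 2.26 and 2.13 in diabetic samples against 2.43, 2.79 and 2.77 in normal samples. All 3 diabetic values lay below all 3 normal values, and the diabetic ones were close to the background limit. The difference was -0.49 (SE 0.14, limma adjusted p 0.780), and its unadjusted p of 0.00393 was under 0.05 in all 16 alternatives, between 0.000956 and 0.0174. Its fast-fibre relative Mybpc2 was at 2.03, 2.37 and 2.52 in diabetic samples against 2.75, 2.37 and 2.37 in normal samples. These groups overlapped, with a difference of -0.19 (SE 0.16). Leaving out diabetic replicate 1 gave -0.0516, and leaving out normal replicate 1 gave -0.0667. Diabetic replicate 2 and normal replicates 2 and 3 had the same Mybpc2 value, 2.3739, and the reason for this tie was not tested.

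Myosin light chains stabilise the lever arm of the myosin head. The regulatory light chain of fast fibres, Mylpf (10557575), was at 2.89, 2.84 and 2.78 in diabetic samples against 2.22, 2.73 and 2.64 in normal samples. The groups did not overlap, and normal replicate 1 stood below the other normal arrays. The difference was 0.30 (SE 0.15, limma adjusted p 0.893), and it was 0.15 without normal replicate 1. Myl3, a slow and cardiac essential light chain, was at 2.41, 2.56 and 2.34 and at 2.37, 2.66 and 2.12. Its groups overlapped, with a difference of 0.06 (SE 0.15). The fast essential chain Myl1 and the slow regulatory chain Myl2 were dim, with values from 1.72 to 2.23 and from 1.88 to 2.15.

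All 6 myosin heavy chain genes, which code for the motor itself, were dim. Myh2 (10377055), the motor of fast oxidative fibres, was at 2.25, 1.93 and 1.95 in diabetic samples against 1.69, 1.67 and 1.72 in normal samples. The groups did not overlap, but only diabetic replicate 1 exceeded its background limit. The difference was 0.35 (SE 0.12, limma adjusted p 0.812). Its unadjusted p of 0.0147 became 0.0720, and the difference 0.24, without diabetic replicate 1, by limma. Myh3 (10377018), the embryonic motor that regenerating fibres use, was at 1.98, 2.06 and 1.92 and at 2.10, 2.21 and 2.32. It did not overlap either, in the opposite direction, with a difference of -0.22 (SE 0.12, limma adjusted p 0.893), and exceeded the limit on 2 diabetic and 3 normal arrays. Myh4, the motor of the fastest fibres, was at 1.95, 1.67 and 1.66 and at 1.66, 1.61 and 1.73. Myh1 (1.32 to 1.59 over all arrays) and the perinatal Myh8 (1.66 to 2.00) exceeded the limit on no array, and the slow Myh7 (1.75 to 2.21) did so on 1 array of each group. The groups overlapped for all of Myh1, Myh4, Myh7 and Myh8. In the RefSeq annotation of GRCm38.p6, Myh3, Myh2, Myh1, Myh4 and Myh8 follow each other on chromosome 11 with 0 other coding genes between them. Their coding sequences are closely related, and whether each probe set measures its gene alone was not tested.

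The stretch before the start site is shown for 4 thick filament genes, because the groups did not overlap for Mybpc1, Mylpf and Myh2, while they did for Myh4 in the same cluster as Myh2. The sequences are RefSeq's for GRCm38.p6, the 250 bases before the annotated start, 5′ to 3′ on the gene's strand. Capitals mark matches, on either strand, to CAGCTG (the E-box form that MyoD and myogenin prefer), TATAAA, the MEF2 site and the CArG box that serum response factor binds.
Mybpc1 (chr10:88605153-88605402, - strand): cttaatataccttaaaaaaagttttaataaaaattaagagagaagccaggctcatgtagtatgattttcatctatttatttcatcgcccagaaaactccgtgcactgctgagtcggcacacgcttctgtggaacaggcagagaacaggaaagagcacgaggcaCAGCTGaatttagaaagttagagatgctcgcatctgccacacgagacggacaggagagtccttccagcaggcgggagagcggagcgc
Mylpf (chr7:127211358-127211607, + strand): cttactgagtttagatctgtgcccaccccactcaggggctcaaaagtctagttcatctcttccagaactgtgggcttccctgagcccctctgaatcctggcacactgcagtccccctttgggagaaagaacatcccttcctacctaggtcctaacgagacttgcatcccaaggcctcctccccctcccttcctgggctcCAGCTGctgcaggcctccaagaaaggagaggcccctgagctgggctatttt
Myh2 (chr11:67170777-67171026, + strand): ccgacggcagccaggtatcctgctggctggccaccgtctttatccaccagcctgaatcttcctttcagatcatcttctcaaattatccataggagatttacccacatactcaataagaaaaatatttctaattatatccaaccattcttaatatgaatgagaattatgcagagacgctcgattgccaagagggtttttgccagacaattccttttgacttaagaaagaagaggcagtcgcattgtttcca
Myh4 (chr11:67237562-67237811, + strand): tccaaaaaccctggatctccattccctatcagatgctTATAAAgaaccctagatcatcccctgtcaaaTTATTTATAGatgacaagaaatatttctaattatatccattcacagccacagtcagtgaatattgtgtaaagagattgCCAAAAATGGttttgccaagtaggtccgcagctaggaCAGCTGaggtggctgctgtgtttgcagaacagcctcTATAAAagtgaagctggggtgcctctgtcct
The Myh4 stretch holds matches to all of these motifs, and in it a TATAAA match and the MEF2 site overlap. The Myh2 stretch holds none of them, which says only that those letters are not in this window. Mylpf has CAGCTG 51 bases and Mybpc1 87 bases before the start. The stretch of Myh3, whose groups did not overlap either, is not shown and holds TATAAA 29 bases before the start. Of 27025 RefSeq promoters, as listed in that table, 12.8% hold CAGCTG, 13.0% TATAAA, 3.01% the MEF2 site and 1.40% the CArG box in the same 250 bases. A promoter was at hand for 35 of the 46 members (76.1%), below the 80% set for a comparison over the list, so no share is drawn for the members. A match is a description of the sequence and not of a factor bound there.

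Thin filament genes were the role with the most bright members, 7 of 9, and 7 had the higher mean in diabetic samples (median difference 0.07). They comprise the calcium switch of troponin and tropomyosin on actin. Skeletal actin (Acta1, 10582592), the bulk of the thin filament, was at 2.89, 2.57 and 2.50 in diabetic samples against 2.46, 2.61 and 2.66 in normal samples. The groups overlapped, with diabetic replicate 1 the highest, and the difference was 0.08 (SE 0.14). Tnni2 (10559200), the inhibitory subunit of fast troponin, was at 3.62, 3.48 and 3.37 and at 3.14, 3.29 and 3.34. The lowest diabetic value lay just above the highest normal value, and the difference was 0.23 (SE 0.15, limma adjusted p 0.894). Its slow counterpart Tnni1 was at 2.08, 2.24 and 2.14 and at 1.97, 2.07 and 2.39, overlapping, with a difference of 0.01 (SE 0.14).

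The subunits of troponin other than the inhibitory one overlapped between the groups. Troponin C, the calcium sensor, has a slow form, Tnnc1 (10413726), which was at 3.15, 3.37 and 3.18 in diabetic samples against 3.00, 3.28 and 2.58 in normal samples. Normal replicate 3 was the low array, and the difference of 0.28 (SE 0.18) was 0.09 without it. The fast form Tnnc2 was at 3.13, 3.37 and 3.43 and at 3.03, 3.55 and 3.44, a difference of -0.02 (SE 0.17). Troponin T, which ties the complex to tropomyosin, differed by 0.20 (SE 0.15) in its slow form Tnnt1 and by 0.07 (SE 0.12) in its fast form Tnnt3. Tnnt1 was at 3.03, 3.39 and 3.14 and at 3.06, 2.85 and 3.04. Tnnt3 was at 2.23, 2.18 and 2.13 and at 2.03, 2.28 and 2.02. With an array left out, the difference ranged from 0.0954 (without diabetic replicate 2) to 0.276 for Tnnt1 and from 0.0234 (without normal replicate 3) to 0.154 for Tnnt3. The tropomyosin gene Tpm2 (1.86 to 2.26 over all arrays) and nebulin, Neb, the ruler of the thin filament (1.71 to 1.87), were dim.

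Genes of the Z-disc, the plate that anchors thin filaments, comprised 4 bright and 6 dim members, of which 7 had the higher mean in diabetic samples (median difference 0.09). Desmin (Des, 10347583), the intermediate filament around the disc, which smooth muscle also makes, was at 2.78, 2.24 and 2.28 in diabetic samples against 2.20, 2.01 and 2.62 in normal samples. The highest diabetic and the highest normal array stood apart from the rest, and the difference of 0.16 (SE 0.19) was -0.02 without diabetic replicate 1. Ldb3, a PDZ-LIM protein of the disc, was at 2.41, 2.42 and 2.22 and at 2.30, 2.24 and 1.96, a difference of 0.18 (SE 0.13). Myoz1, which binds calcineurin at the disc, was at 2.45, 2.11 and 2.16 and at 2.05, 2.16 and 2.10, a difference of 0.14 (SE 0.13). In both genes the groups overlapped. The difference was 0.0784 for Ldb3 without normal replicate 3, its low array, and 0.0299 for Myoz1 without diabetic replicate 1, its high array. The titin cap Tcap was at 2.17, 2.60 and 2.37 and at 2.42, 1.95 and 2.69. Its normal values spread wider than, and on both sides of, the diabetic ones, and the difference was 0.02 (SE 0.19).

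Among the dim Z-disc genes, Myot (10455461), which codes for the actin-bundling protein myotilin, was at 1.71, 1.95 and 1.85 in diabetic samples against 1.53, 1.58 and 1.59 in normal samples. The groups did not overlap, yet every value was under the background limit. The difference was 0.27 (SE 0.11, limma adjusted p 0.863), and the unadjusted p of 0.0314 was under 0.05 in 10 of 14 alternatives. Without diabetic replicates 2 or 3, or normal replicates 1 or 2, it lay between 0.0557 and 0.116 by limma. Titin (Ttn), the spring that spans the sarcomere from disc to M-line, varied little, between 1.69 and 1.79 on all 6 arrays. The alpha-actinins cross-link thin filaments at the disc, and Actn2 lay between 1.56 and 1.85 and the fast-fibre Actn3 between 1.63 and 2.17. Myoz2 lay between 1.26 and 1.80 and the actin-binding Xirp2 between 1.35 and 1.67. The groups overlapped for all 4 of these genes, and of them Actn3 exceeded the limit, on normal replicate 1, and the others on no array.

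Calcium-handling genes had 3 bright and 5 dim members, with the higher mean in diabetic samples for 4 and in normal samples for 4. The calcium pump of fast fibres, Atp2a1 (10567879), was at 2.18, 2.47 and 2.24 in diabetic samples against 2.20, 2.02 and 2.10 in normal samples. It exceeded the limit on 3 diabetic arrays and 1 normal array, and the groups overlapped, with a difference of 0.19 (SE 0.13). Leaving out diabetic replicate 2 gave 0.10. Sarcolipin (Sln, 10585390), the small inhibitor of that pump, was at 1.60, 1.55 and 2.02 and at 1.27, 1.52 and 1.44. Its groups did not overlap, but it exceeded the limit on no array. The difference was 0.31 (SE 0.14, limma adjusted p 0.887). Its unadjusted p of 0.0422 became 0.208, and the difference 0.16, without diabetic replicate 3, by limma, and it was 0.143 without normal replicate 1 and 0.0666 without normal replicate 3. It was under 0.05 in 8 of 14 alternatives, and was also above it with array weights, without the intensity trend and in an ordinary linear model. The ryanodine receptor Ryr1, the store's release channel, was at 1.91, 2.07 and 1.96 and at 1.97, 2.08 and 1.98. Its values stayed between 1.91 and 2.08, around the limit, and the voltage sensor Cacna1s (1.78 to 2.32) overlapped as well. The calcium buffers of the store, Casq1 (1.48 to 1.94), and of the cytosol, Pvalb (1.24 to 1.71), exceeded the limit on no array, and their groups overlapped.

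Triadin (Trdn), which tethers the release channel to calsequestrin, and junctophilin (Jph1), which holds the store to the surface membrane, were the members with several probe sets. The brightest Trdn probe set (10362450) was at 3.40, 3.44 and 3.85 in diabetic samples against 3.52, 3.23 and 3.37 in normal samples. The groups overlapped, with a difference of 0.19 (SE 0.17). Without diabetic replicate 3, the high array, the difference was 0.0465. It was 1 of 19 probe sets, with differences from -0.47 to 0.31. Of the 4 bright ones 3 had the higher mean in diabetic samples (0.19, 0.04 and 0.31) and 1 in normal samples (-0.16), and of the 15 dim ones 4 and 11 did. The mean of all 19, most of them dim, gave a difference of -0.09. Jph1 was at 3.20, 3.17 and 3.25 and at 3.19, 3.22 and 3.35, with both of its probe sets lower in diabetic samples (-0.05 and -0.11) and the groups overlapping.

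Enzymes and carriers of muscle energy supply had the higher mean in diabetic samples in all 4 members, and a median difference of 0.13. Muscle creatine kinase (Ckm, 10550698), which regenerates ATP from phosphocreatine, was at 3.24, 3.14 and 3.02 in diabetic samples against 3.17, 2.70 and 3.16 in normal samples. Normal replicate 2 was the low array, and the difference of 0.12 (SE 0.16) was -0.04 without it. The oxygen store myoglobin (Mb) was at 2.80, 2.56 and 2.73 and at 2.72, 2.78 and 2.46, a difference of 0.04 (SE 0.14). The muscle glycogen phosphorylase Pygm was at 2.20, 2.55 and 2.23 and at 2.01, 2.16 and 2.31, a difference of 0.17 (SE 0.14) that shrank to 0.054 when diabetic replicate 2 was left out. The groups of Mb and of Pygm overlapped. The dim enolase Eno3, an enzyme of glycolysis, was at 2.00, 2.30 and 2.24 and at 1.93, 2.04 and 2.13. Its groups and those of Ckm overlapped too.

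The regulators overlapped between the groups as well. Myogenin (Myog), which drives differentiation of muscle precursors, was at 2.23, 2.30 and 2.28 in diabetic samples against 1.81, 2.55 and 2.16 in normal samples. The diabetic values lay close together inside the wide normal range, and the difference was 0.09 (SE 0.17). Myod1, which commits cells to the muscle lineage, was dim, at 2.02, 1.86 and 2.07 and at 2.03, 2.27 and 2.17. Trim63, the ubiquitin ligase MuRF1 that is induced in muscle wasting, was at 2.22, 2.44 and 2.46 and at 2.34, 2.44 and 2.17, a difference of 0.06 (SE 0.13).

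**Figure D2:**
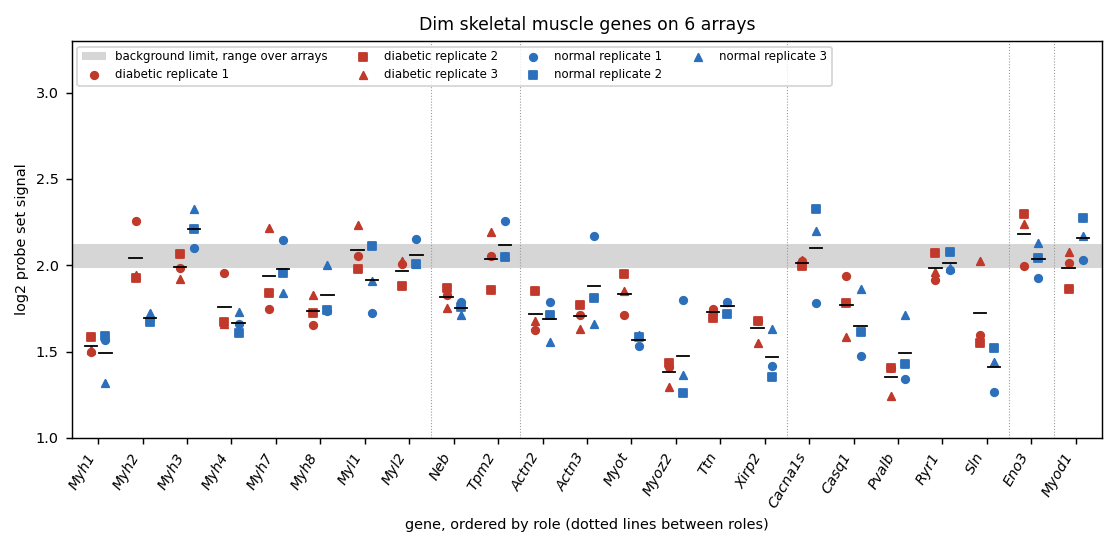
Log2 probe set signal of the 23 dim skeletal muscle genes on each of 6 arrays, drawn with the same markers, group means and grey band as the bright ones, on a narrower axis. Myh2, Myot and Sln are higher and Myh3 is lower in diabetic samples without overlap, and most values of these genes other than Myh3 lie under the band.

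Non-overlap of the groups was found for 7 members. They were Myh2, Mylpf, Tnni2, Myot and Sln in the higher direction and Myh3 and Mybpc1 in the lower. The 5 higher make up 10.9% of the members, where 5.02% of all genes were higher without overlap, and the 2 lower make up 4.35%, where 5.66% of all genes were lower. Among the 23 bright members it was 2 higher (8.70%) and 1 lower (4.35%), beside 6.78% and 3.54% of all bright genes, which sum to 10.3%. Among the 23 dim members it was 3 higher (13.0%) and 1 lower (4.35%), beside 4.38% and 6.43% of all dim genes, which sum to 10.8%. In either direction it was 7 of 46 (15.2%), where 10.7% of all genes had no overlap.

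**Figure D3:**
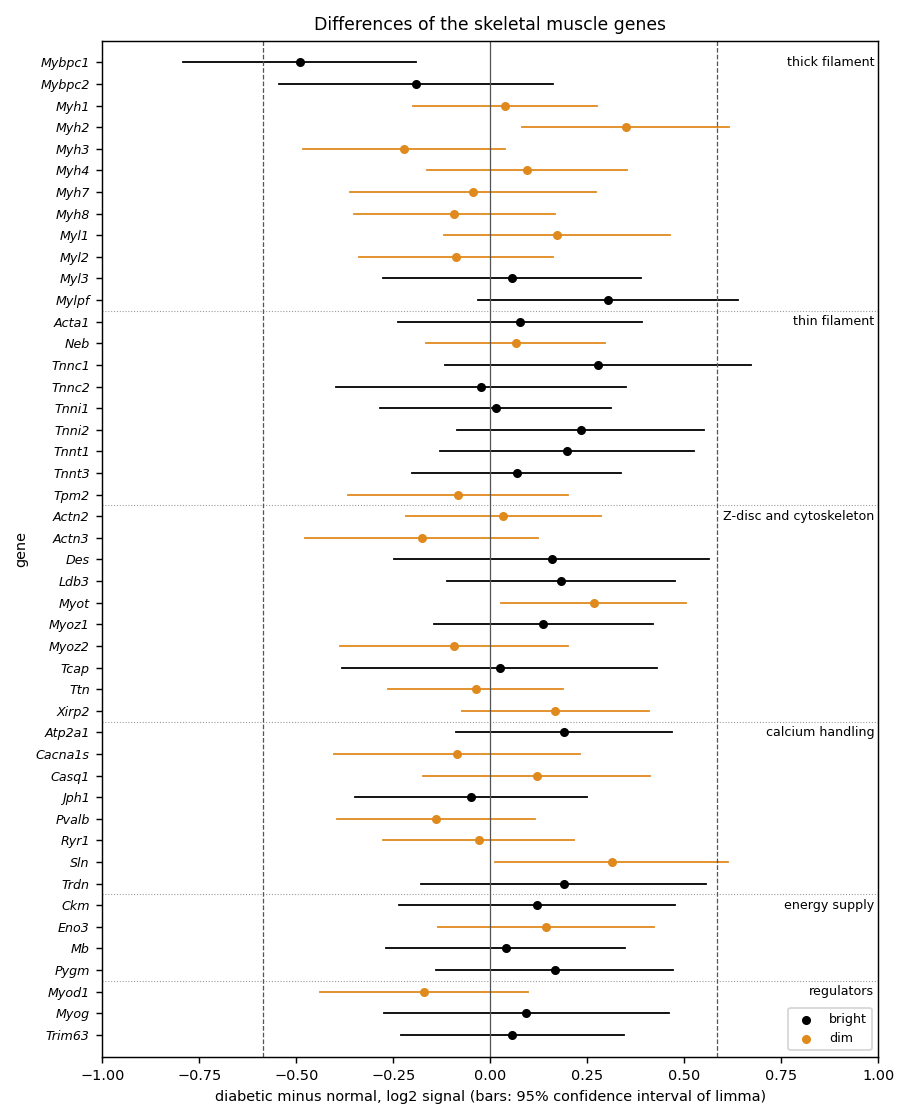
Difference (diabetic minus normal, log2 signal) of each of the 46 genes by role, with the 95% confidence interval from limma as a bar, bright genes in black, dim genes in orange and dashed lines at a fold of 1.5 in either direction. Intervals of 41 of the 46 genes lie between the dashed lines, and those of Mybpc1, Myh2, Myot and Sln leave out 0.

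The intervals bound the differences in signal. The 95% confidence interval lay within 2-fold in either direction for all 46 members and within 1.5-fold for 41. For the 23 dim members this describes array signal and does not bound a difference in RNA. How far signal follows RNA in the bright members, many of them near the limit, was not tested. The median SD within a group was 0.16 for bright and 0.13 for dim members, beside 0.17 and 0.14 for all bright and all dim genes.

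Members can also be set out by fibre type. The diabetic mean was above the normal mean for 10 of 14 genes typical of fast fibres (median difference 0.11) and for 4 of 7 typical of slow fibres (median 0.01). The fast genes held 7 bright members, among them Tnni2, Mylpf and Atp2a1, and the slow genes 4, among them Tnnc1 and Tnnt1. The summed linear signal of the fast genes was 70.3 to 72.6 on the diabetic arrays and 63.6 to 69.5 on the normal arrays, and that of the slow genes was 36.6 to 41.4 and 34.0 to 37.8. Dim genes are part of both sums, and no such sum was made over all genes. The developmental motors Myh3 and Myh8 both had lower means in diabetic samples. No difference between the fibre types was tested.

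Across arrays, normal replicate 1 was the lowest array for 8 of the 23 bright members (34.8%) and diabetic replicate 1 the highest for 7 (30.4%). Over all 5336 bright genes the same arrays were lowest for 25.7% and highest for 13.1%. Members above the limit made up 67.4%, 56.5% and 58.7% in the diabetic samples and 50% in each normal sample. Of all genes, 35.2%, 36.5% and 29.9% exceeded it in the diabetic samples, against 28.1%, 28.6% and 28.5% in the normal samples. The limit itself was lowest on diabetic replicates 1 and 2, at 1.98 and 2.01. The part of these array-wide shifts in the members' differences was not tested.

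**Figure D4:**
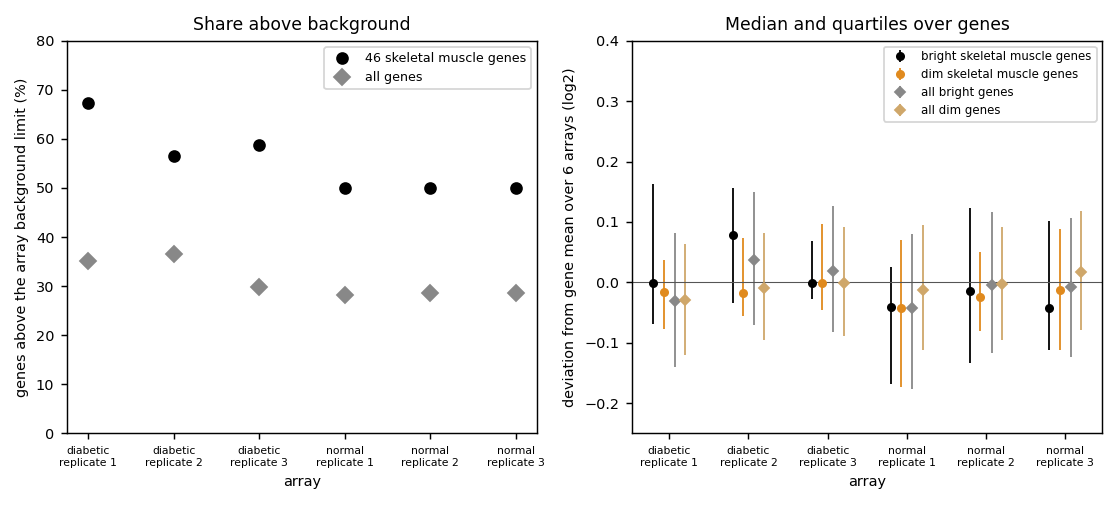
Left, percentage of the 46 skeletal muscle genes (circles) and of all genes (diamonds) above the background limit on each array. Right, median and quartiles of the deviation of each gene from its own mean over 6 arrays (log2), for bright and dim skeletal muscle genes and all bright and all dim genes. The members are at 50% on each normal array and between 56.5% and 67.4% on the diabetic arrays, and the quartiles of all lists overlap on every array.

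Other skeletal muscle genes, a list of 90 of which 86 were measured, divided evenly. Of these, 42 were higher and 44 lower in diabetic samples, with a median difference of less than 0.01 in size, and 0 passed the adjusted threshold. At an unadjusted p under 0.05 there were 3 higher and 1 lower, where 2.64% of all genes were higher and 2.92% lower at that threshold. Of the 86, 4 were higher and 6 lower without overlap of the groups, where 5.02% of all genes were higher and 5.66% lower. Further sarcomere genes had 22 of 33 higher, and membrane and regulatory genes 5 of 21 higher and 16 lower.

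The 3 higher genes all came from the sarcomere list. The small heat shock protein Hspb7 (10509992) was at 2.86, 2.64 and 2.63 in diabetic samples against 2.30, 2.47 and 2.18 in normal samples. The groups did not overlap, all values were above the limit, and the difference was 0.39 (SE 0.14, limma adjusted p 0.809). Its unadjusted p was under 0.05 in 14 of 16 alternatives, the exceptions being without diabetic replicate 1 and without normal replicate 3. The chaperone alpha-B crystallin (Cryab), which other tissues also make, differed by 0.32 (SE 0.14, limma adjusted p 0.887). It exceeded the limit on 2 diabetic and 0 normal arrays, and the groups met at 1.96. Its unadjusted p was under 0.05 in 9 of 15 alternatives, and without diabetic replicate 2 the difference was 0.19. Tropomodulin 4 (Tmod4), which caps thin filaments, also differed by 0.32 (SE 0.14, limma adjusted p 0.887). Its unadjusted p was under 0.05 in 11 of 15 alternatives, and without diabetic replicate 1 the difference was 0.18. Tmod4 was dim, with a mean of 2.06 over all arrays, and exceeded the limit on 3 diabetic and 0 normal arrays. Its group means were 2.22 in diabetic and 1.91 in normal samples, and the groups did not overlap. The diabetic mean was 1.08-fold above the mean limit of the normal arrays, 2.11. That ratio carries no sampling error and is not a lower bound on the difference, whose 95% confidence interval was 0.01 to 0.62.

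The 1 lower gene, Cavin4 (10504902), a caveolar coat protein of muscle, was at 1.76, 1.58 and 1.53 in diabetic samples against 1.86, 1.99 and 2.39 in normal samples. The groups did not overlap, only normal replicate 3 exceeded the limit, and the difference was -0.45 (SE 0.15, limma adjusted p 0.780). It was -0.30 without normal replicate 3. The myogenic factors Myf5 and Myf6, which share the lineage role of Myod1, had normal means of 1.66 and 1.68 and diabetic means of 1.43 and 1.45. Both were lower in diabetic samples without overlap, and both were under the limit on all 6 arrays. In the lists of calcium and excitation genes and of energy genes, 9 of 18 and 6 of 14 were higher, and 0 of either list had an unadjusted p under 0.05.

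Markers of further wound cell types were set beside the muscle genes. Defining skeletal muscle genes divided, with Acta1 and Ckm above the limit on all 6 arrays, Atp2a1 on 4 and Myh4 on none. The summed linear signal of the 46 members was 234.4 to 238.9 on the diabetic arrays and 222.0 to 229.6 on the normal arrays. Dim members are part of these sums, and no such sum was made over all genes. For other sarcomere genes the sums were 148.7 to 152.3 and 135.7 to 147.7. The sums overlapped for other calcium and excitation genes (77.8 to 84.4 and 75.1 to 81.4) and energy genes (53.83 to 57.05 and 54.85 to 57.46). Those of membrane and regulatory genes also overlapped (77.7 to 84.6 and 84.0 to 86.0). Of 11 smooth muscle markers, 6 were higher and 5 lower, and their summed signal of 42.9 to 49.7 overlapped with 41.9 to 45.8. Of the 4 with the smallest p, Myl9, Smtn and Myocd differed by 0.34 (SE 0.14), 0.28 (SE 0.12) and 0.20 (SE 0.11). The remaining one, Cnn1, differed by -0.26 (SE 0.17). Of the 11, Myl9 and Smtn had an unadjusted p under 0.05 (limma p 0.0358 and 0.0443, adjusted p 0.875 and 0.887). At that threshold 2.64% of all genes were higher in diabetic samples. Smtn was also the 1 smooth muscle marker without overlap. Myh11 and Acta2 were above the limit on 6 and 3 arrays and differed by -0.04 and 0.17. Fibroblast markers had 9 of 15 higher, with summed signals of 93.1 to 105.8 and 91.9 to 97.7, and Col1a1 at 3.80 ± 0.39 (SD) and 3.50 ± 0.15. The fibroblast markers with the smallest p were Col6a3 at 0.22, Postn at -0.20, Col1a1 at 0.30 and Pdgfra at 0.16. Col6a3 and Pdgfra were the 2 of 15 without overlap, where 5.02% of all genes were higher without overlap. Keratinocyte markers ran in both directions, with 9 of 20 higher and 11 lower, with summed signals of 84.0 to 89.1 and 85.4 to 96.9. The keratins Krt5 and Krt14 were above the limit on 2 diabetic arrays each and on 0 normal arrays, and the epidermal transcription factor Trp63 on 0 diabetic and 2 normal arrays. Trp63 differed by -0.31 (SE 0.14, limma unadjusted p 0.0425, adjusted p 0.887) and was the 1 marker of that list with an unadjusted p under 0.05. The next by p were Krt16 at -0.26, Perp at -0.25, which did not overlap, and Dsp at -0.30. Of the 20 keratinocyte markers 2 were lower without overlap, where 5.66% of all genes were. The part of these cell types in the members' differences was not tested.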

How the data were processed

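Per the labels' protocols, fixed wound sections were stained for E-cadherin, keratinocytes of the epithelial tongue were captured by laser, and the RNA of fixed cells was isolated and amplified with a whole-transcript kit for very small inputs. The authors deposited log2 signals of 35556 probe sets for each of 6 arrays. That the base is 2 was inferred from the highest value, 13.34, which another base would put beyond the range of a 16-bit scanner. The submitters' processing notes name Partek, and the sources used here do not give how signals were corrected, normalized or summarized. Medians of the arrays lay between 1.75 and 1.80, and no scaling was added. Columns of other samples numbered 0.

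The array's annotation table gave 1 symbol for 21789 probe sets, several for 1621 and none for 12146. Of the first, 21698 were matched by gene ID to the RefSeq table of GRCm38.p6, which updated symbols. Each gene was read from its brightest probe set by 6-array mean, giving 19938 genes with no filter on dim genes. Groups and replicate numbers came from the titles. The groups were tested in R 4.3.3 by limma 3.58.1, using lmFit and then eBayes with a trend on intensity. The model held group alone, and p-values were adjusted over all genes by Benjamini-Hochberg. The script was tested on simulated data. No batch is given in the labels, and the number of arrays limits the precision.

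The members and gene lists were chosen with earlier results of these data known, so neither is independent evidence. All members could be named, and of each other list up to 4 genes with the smallest p, plus the defining markers of each cell type. The lists of other muscle genes cover sarcomere, calcium and excitation, energy, and membrane and regulatory genes, and the marker lists cover keratinocytes, fibroblasts, smooth muscle, endothelium, myeloid cells and adipocytes. The motif search read the RefSeq promoter table on both strands. Alternatives covered scaling, the variance model, array weights, a replicate block, probe set choice, filters, the background limit and each array left out.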

Additional observations from a re-analysis of the deposited data

How the results depend on the processing

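The 23 bright members and 4 dim ones (Myh2, Myh3, Myot and Sln, picked for a small p or non-overlap) were followed through up to 16 alternatives, and the other 19 dim members were not. Of these 27, 16 kept their direction in all and 11 of the bright ones turned in at least 1. With the mean of all probe sets Trdn was -0.087. With each array left out in turn, the range was -0.040 to 0.15 for Acta1, -0.18 to 0.081 for Tnnc2, -0.0165 to 0.33 for Des, -0.056 to 0.11 for Mb, -0.074 to 0.19 for Myl3, -0.073 to 0.14 for Tnni1, -0.18 to 0.19 for Tcap, -0.088 to 0.28 for Myog, -0.0355 to 0.20 for Ckm and -0.017 to 0.13 for Trim63.

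The median over all members was 0.06, with 0.093 among genes above the background limit (fewer genes) and 0.046 to 0.085 with an array left out. That of bright members was 0.19 with the 99th percentile as limit, which left 7, and 0.07 to 0.12 with an array left out. That of dim members, -0.03, was -0.064 among the brighter 50% of genes, -0.013 after median centring, 0.052 with the 90th percentile, 0.055 with the 99th, 0.052 with the limit exceeded on all 6 arrays and -0.030 to 0.038 with an array left out, so it has no settled sign. The cause was not tested where the alternative did not change the genes. Members at an unadjusted p under 0.05 numbered 2 in the brighter 50% of genes, 1 among genes above the limit and 2 to 5 with an array left out (2 without diabetic replicate 3 or normal replicate 1). With an array left out, 0 to 2 genes of all passed the adjusted threshold, and none of the tracked members did.

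Same-numbered arrays shared no clear gene-by-gene pattern, with correlations across genes of -0.02, 0.01 and 0.01 between their deviations from the group means. A shift equal for all genes of an array does not enter these correlations. These values cannot show whether the samples were paired in the experiment. The replicate block left 0 genes called, a median of 0.06 over members and 4 at an unadjusted p under 0.05. Signal near background limits all statements on dim members.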

Other observations

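MicroRNA genes known for skeletal muscle were also on the array. Probe sets were named for 6 of them (Mir1a-1, Mir1a-2, Mir133a-1, Mir133a-2, Mir206 and Mir499). Their values lay between 0.92 and 1.72, and they exceeded the background limit on 0 of the 6 arrays, in both groups. Such probe sets measure the precursor transcript and the mature form only as far as the labelling takes up short RNA, which was not tested.

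Of 8 measured adipocyte markers 6 were higher and 2 lower in diabetic samples, with the lipid droplet protein Plin1 above the limit on all 6 arrays and Adipoq on none. Of 12 myeloid markers 10 exceeded the limit on no array, among them Ptprc and Lyz2. Of 10 endothelial markers 5 were higher and 5 lower, and Cdh5 exceeded the limit on no array.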
